A study of Mus musculus with 5 samples.

Results

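The subject is the stretch of mouse chromosome 16 that holds Rbfox1, from 5300001 to 7450000 in the build mm9, followed in nuclei sorted from mouse hippocampus in 3 groups, Basal, Early and Late. All 43 bins of 50 kb listed in this interval had a value in each of the 5 libraries, and they are 43 of 50542 such bins in the series. The 1 Mb flanks on either side, from 4300001 to 5300000 and from 7450001 to 8450000, added 20 bins each, also valued in all 5 libraries. The interval was chosen by its fall in compartment score from Basal to Late and to Early, so its levels against Basal are given as a description, with no test.

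Rbfox1 encodes an RNA-binding protein of neurons, heart and muscle that binds the motif UGCAUG in transcripts and steers the choice of alternative exons. In neurons its targets include transcripts of ion channels and synaptic proteins, and loss of the gene in the mouse brain raises excitability. The gene is among the longest in the genome, with several promoters and very long introns at its 5' side. Long neuronal genes of this kind often lie in gene-poor surroundings, where chromatin can be assigned to the open compartment A or the closed compartment B depending on the cell type. In the RefSeq table for GRCm38.p6 the gene is 1.53 Mb long, rank 14 among 21900 protein-coding genes, so the interval of 2.15 Mb is longer than the gene. That table is of another build, and no annotation of mm9 was used here, so the bin that holds each end of the gene is not given.

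By gene order in the same table, the nearest protein-coding genes proximal to Rbfox1 are Eef2kmt, which encodes a methyltransferase of a translation elongation factor, and Alg1, which encodes a mannosyltransferase of N-glycan synthesis. AU021092, Nagpa, Sec14l5 and Ppl follow, of which Nagpa acts in the sorting of lysosomal enzymes and Ppl encodes the cytoskeletal linker periplakin. The nearest distal ones are Tmem114, Mettl22, Abat, Tmem186, Pmm2 and Carhsp1, of which Abat encodes the enzyme that breaks down the transmitter GABA. The table lists no protein-coding gene in the gaps between Eef2kmt, Rbfox1 and Tmem114, only 5 non-coding genes in the proximal gap and 4 in the distal one. A further 5 long non-coding RNA genes lie within Rbfox1.

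Hi-C counts contacts between genome regions by ligating neighbouring DNA ends in fixed nuclei, and the first principal component (PC1) of its contact matrix sorts bins into compartment A (positive) and B (negative). Basal had 2 libraries, Early 1 and Late 2. All came from hippocampus of mice that carry ArcCreERT2, a tamoxifen-dependent Cre recombinase under the control of the activity gene Arc, and a floxed-stop eYFP reporter in R26R, with the genotype given as +/+. Every group shared the same treatment label, with foot shock and collection on day 0 and no recall. The protocol describes 4-hydroxytamoxifen 1 h before contextual fear conditioning and collection after 1.5 to 2 h or after 5 days. The titles give the 3 names and no times, so the time behind each name is not known here. The labels give neither age nor sex. Nuclei were sorted after staining for NeuN and GFP, and libraries were made from 100000 nuclei of 2 animals per group. Cre under Arc marks only neurons that expressed Arc around the tamoxifen dose, and which sorted fraction each library holds is not stated. PC1 gives no transcript level, so neither the neuronal label nor expression of Rbfox1 could be checked.

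On chromosome 16 the Early library stood apart before any result on Rbfox1. Across the bins of that chromosome its Pearson r was 0.732 and 0.734 to the Basal libraries and 0.745 and 0.786 to the Late libraries. The Basal pair gave 0.984, the Late pair 0.946, and a Basal with a Late library 0.889 to 0.920. These are descriptions over bins of the same libraries. In limma 43.8% of the bins of the chromosome passed for Early against Basal, and 19.0% passed for Late against Basal. Results that rest on Early rest on this 1 library.

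In Basal nuclei the Rbfox1 interval lay wholly in compartment A, and it lost most of that score in both other states. Its mean PC1 over the 43 bins was 1.09 and 1.02 in Basal replicates 1 and 2. Early was at -0.0851, and Late replicates 1 and 2 were at 0.0290 and 0.0672. Both Basal libraries were high, the other 3 lay close to the border of A and B, and the groups did not overlap. The group means were 1.06 ± 0.047 for Basal and 0.0481 ± 0.027 for Late (SD, n = 2 for either group). Late minus Basal was -1.01, and Early minus Basal was -1.14.

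The fall ran through every bin. Late minus Basal was negative in 43 of 43 bins, from -1.67 to -0.472, and Early minus Basal in 43 of 43, from -1.97 to -0.326. All Late libraries lay below all Basal libraries in the 43 bins, against 31.9% of all 47652 analysed bins. Early lay below both Basal libraries in all 43 as well, against 44.0% of all bins. In limma, 41 bins were lower in Late at an adjusted p of 0.05, where the background was 7.63%, and 38 were lower in Early, where it was 9.98%. Because this contrast chose the interval, nothing is read from these counts. They were 0 for Late (42 bins at an unadjusted p under 0.05) and 24 for Early when limma was run on all sequences as deposited, chromosome 7 included.

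**Figure D1:**
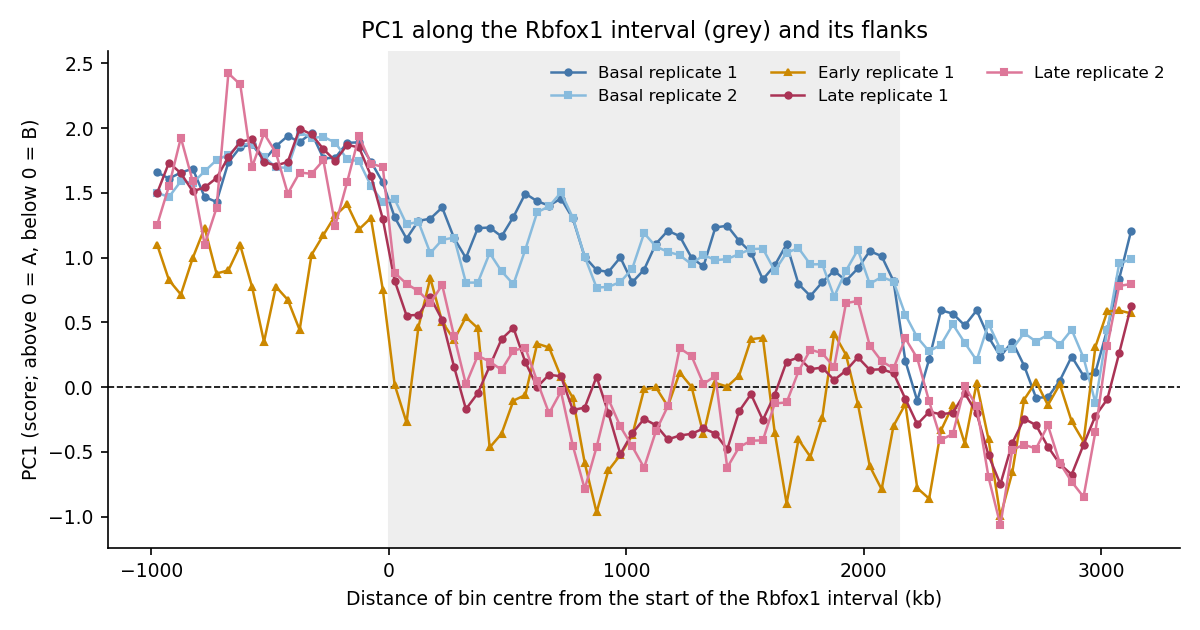
PC1 in each 50 kb bin (y axis, score, above 0 for compartment A) against the distance of the bin centre from the start of the Rbfox1 interval (x axis, kb), for the 5 libraries, with the interval in grey and 1 Mb flanks on either side. Both Basal libraries stay above 0 in all 43 bins of the interval, while the Late libraries drop from the level of the proximal flank within the first bins and the Early library lies below Basal on both sides of that border.

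The label of the interval, a gene body losing compartment A, held in part. No bin of it was negative in a Basal library, where the lowest values were 0.704 and 0.699. In Late replicates 1 and 2, 24 and 26 of the 43 bins were still positive, and in Early 19 were. Bins in A in both Basal libraries and in B in both Late libraries numbered 13 (30.2% of the interval, against 2.62% of all bins). For Early the number was 24 (55.8%, against 4.09%), and it needs a negative value in 1 library only. Over the rest of chromosome 16 the shares were 2.64% for Late and 9.31% for Early. The interval therefore moved from A to a mixture of positive and negative bins, from -0.967 to 0.842 in Early and from -0.786 to 0.883 in the Late libraries, not into B as a whole. Its longest unbroken stretch of B was 750 kb in Late replicate 1, from 6.20 to 6.95 Mb. It was 550 kb in Late replicate 2, from 5.95 to 6.50 Mb, and 450 kb in Early, from 6.05 to 6.50 Mb.

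The depth of the fall varied along the interval, which was divided into 4 consecutive parts of 10 or 11 bins. In the first part, from 5.30 to 5.85 Mb, PC1 was 1.23 and 1.06 for Basal, 0.181 for Early, and 0.371 and 0.467 for Late. This was the part in which Late kept most of its score, with 9 and 11 of 11 bins in A. In the second part, from 5.85 to 6.40 Mb, Basal was at 1.15 and 1.10, Early at -0.230, and Late at -0.109 and -0.279. Late minus Basal was largest here, at -1.32, against -0.726 in the first part.

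The third part, from 6.40 to 6.95 Mb, had Basal at 1.08 and 1.01, Early at 0.0113, and Late at -0.286 and -0.170. None of its 11 bins was in A in Late replicate 1, and 4 were in Late replicate 2. In the fourth part, from 6.95 to 7.45 Mb, Basal was at 0.894 and 0.913, Early at -0.324, and Late at 0.151 and 0.269. Here the Late libraries were back above 0 in 10 and 9 of 10 bins, and Early was in A in 2. All 13 bins that passed from A in Basal to B in Late lay in the second part (6) and the third (7), whereas those of Early were spread over all 4 parts (4, 8, 4 and 8). In none of the parts did a Basal library overlap with an Early or Late library.

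The profile within the interval was shared by the Late replicates more than by other pairs. Over its 43 bins, Pearson's r was 0.725 between the Late replicates (Spearman's rho 0.687) and 0.558 between the Basal replicates (rho 0.478). Pairs of a Basal and a Late library gave r of 0.119 to 0.277, and Early gave 0.137 and 0.271 with Late and 0.319 and 0.394 with Basal. Neighbouring bins share reads, so these correlations describe the libraries and carry no p.

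**Figure D2:**
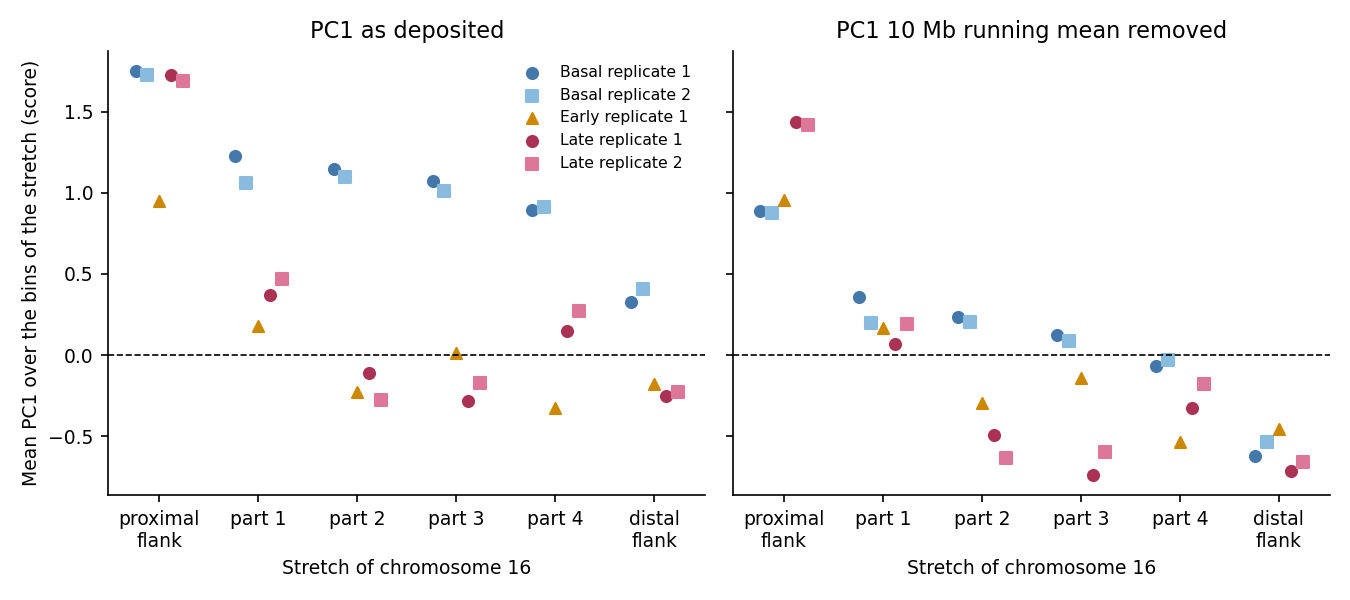
Mean PC1 (y axis, score) in each library over the proximal flank, the 4 parts of the Rbfox1 interval and the distal flank (x axis), as deposited on the left and with a 10 Mb running mean removed on the right. As deposited, the Late libraries lie beside Basal in the proximal flank and below 0 in parts 2 and 3 and the distal flank, and with the running mean removed Late minus Basal is -0.780 in part 2 and -0.774 in part 3, against -0.148 in part 1 and -0.205 in part 4.

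The flanks of Rbfox1 had unlike values. The proximal flank, on the side of Eef2kmt and Alg1, had a mean PC1 of 1.75 and 1.72 for Basal, 0.949 for Early, and 1.73 and 1.69 for Late. Late and Basal libraries lay next to each other there, with a difference of -0.0299. In limma 0 of the 20 bins were called (0 at an unadjusted p under 0.05), against 16.4% of all bins. Early lay 0.789 below Basal, and it was below both Basal libraries in all 20 bins, against 44.0% of all bins. All 20 bins stayed in A in every library. The distal flank, on the side of Tmem114, was weakly in A in Basal, at 0.325 and 0.405. It was at -0.175 in Early and at -0.254 and -0.225 in Late. Late minus Basal was -0.604 in this flank, so the fall did not stop at the distal end of the interval. By sign, 11 of its 20 bins passed from A to B (55.0%, against 2.62% of all bins), from Basal values near the border.

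Set against its proximal flank, the interval fell more in Late than in Early. The interval minus the proximal flank was -0.661 and -0.700 for Basal, -1.03 for Early, and -1.70 and -1.62 for Late. The 2 Late libraries had the widest gap, Early lay between, and the groups did not overlap. This measure is unaffected by any shift that moves interval and flank alike. Set against its distal flank, the interval was higher by 0.766 and 0.619 in Basal, by 0.283 and 0.292 in Late and by 0.0903 in Early. The Rbfox1 interval thus stood out from its distal side most in Basal and least in Early.

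**Figure D3:**
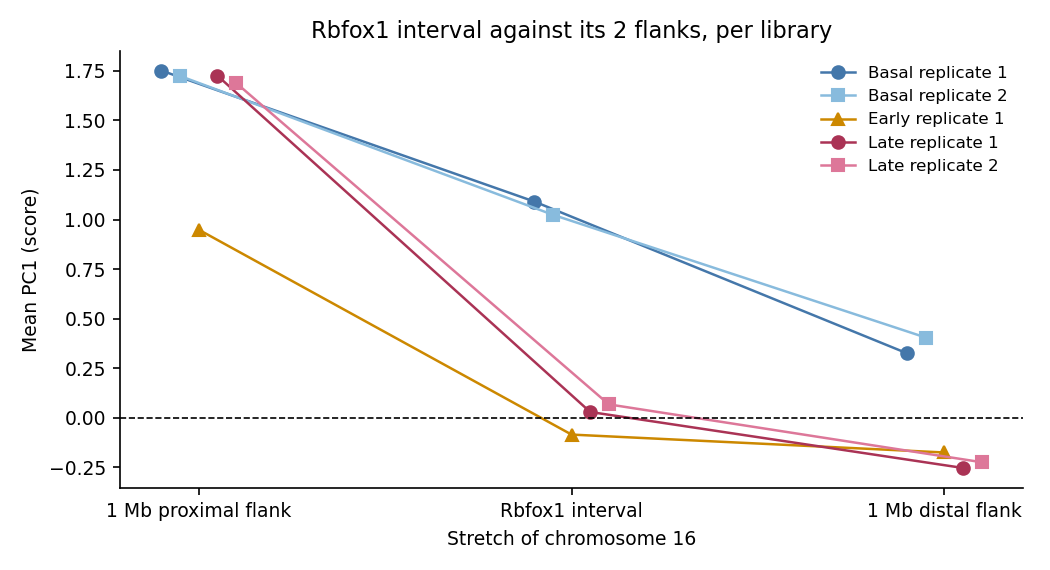
Mean PC1 (y axis, score) of the 1 Mb proximal flank, the Rbfox1 interval and the 1 Mb distal flank (x axis), with 1 line per library. The Late lines leave the proximal flank at the Basal level, 1.73 and 1.69, and meet the Early line near 0 in the interval.

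The step at the proximal border was larger in Early and Late than in Basal. The last bin outside the interval, at 5.25 Mb, had Basal at 1.58 and 1.43, Early at 0.754, and Late at 1.30 and 1.70. The first bin inside, at 5.30 Mb, had Basal at 1.31 and 1.45, Early at 0.0185, and Late at 0.822 and 0.883. Over 250 kb on each side, the step into the interval was -0.488 and -0.444 for Basal, -0.892 for Early, and -1.05 and -0.867 for Late. The Late step was largest in replicate 1, and Late replicate 2 was close to Early. At the distal border the last bin inside, at 7.40 Mb, had Basal at 0.820 and 0.815, Early at -0.299, and Late at 0.108 and 0.145. The first bin outside, at 7.45 Mb, had Basal at 0.202 and 0.558, Early at -0.131, and Late at -0.0910 and 0.376. The step out of the interval was -0.630 and -0.479 for Basal, -0.133 for Early, and -0.343 and -0.452 for Late. Basal replicate 2 and Late replicate 2 were close at this border, unlike at the proximal one.

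The distal flank fell as well in Late and Early, and the proximal flank fell in Early. A running mean over 10 Mb was subtracted from each library to leave only local structure. The window is shortened to start at 3.20 Mb, the first bin valued in all libraries, and it includes the interval itself, so it removes part of any change in Rbfox1. With the running mean removed, the interval had Basal at 0.167 and 0.118, Early at -0.193, and Late at -0.374 and -0.307. Basal was highest and Late lowest, and the groups did not overlap. Late minus Basal was -0.483, which is 47.8% of the deposited difference, and Early minus Basal was -0.336, which is 29.4%. With a running mean taken only from bins outside the interval, Late minus Basal was -0.656 (65.0% of the deposited difference) and Early minus Basal -0.456 (39.9%).

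After this correction the distance from Basal varied along the interval. In the second part the corrected PC1 was 0.232 and 0.202 for Basal, -0.295 for Early, and -0.494 and -0.631 for Late. In the third part it was 0.125 and 0.0848 for Basal, -0.138 for Early, and -0.740 and -0.599 for Late. These are the parts in which both Late libraries lay farthest below Basal, with Late minus Basal at -0.780 and -0.774. In the first part the Late and Basal libraries nearly met, at 0.356 and 0.201 in Basal against 0.0694 and 0.192 in Late. Early, at 0.166, lay between the Late libraries there. In the fourth part Early was lowest, at -0.537, with Basal at -0.0659 and -0.0278 and Late at -0.326 and -0.177, so the groups did not overlap in that part. With a running mean taken only from bins outside the interval, Late minus Basal was -0.326, -0.956, -0.948 and -0.369 in the 4 parts. The first part then had Basal at 0.446 and 0.269 and Late at -0.0431 and 0.107. The near meeting of Late and Basal in that part thus depends on the running mean used.

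The corrected values come from the contrast that chose the interval, so the counts against Basal that follow are a description and nothing is read from them. In limma on the corrected values, 19 of the 43 bins were lower in Late than in Basal, against a background of 5.61%, of which part 2 and part 3 held 9 each. For Early, 11 bins were lower than in Basal, against 5.71%. The number of bins called depended on which library was left out, in the interval and over all bins alike. The correction also moved the proximal flank, which was 0.547 above Basal in Late after it, with 13 of 20 bins called higher (background 6.34%). The running mean subtracted there itself fell by 0.545 between Basal and Late at the first bin of the flank, where the deposited value differed by -0.204. Over the 20 bins of the flank the deposited difference was -0.0299.

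The place of the interval on chromosome 16 differed between the states. In 49 consecutive stretches of 2 Mb, Late minus Basal was lowest at 6 to 8 Mb, at -0.965, and next to it, at 8 to 10 Mb, it was -0.691. The stretch at 4 to 6 Mb, which holds the proximal flank and the interval up to 6 Mb, had -0.292, and that at 10 to 12 Mb -0.112. The proximal flank alone had -0.0299, so the value at 4 to 6 Mb is no sign of a fall outside the interval. Early minus Basal was -1.09 at 6 to 8 Mb, but this was only the third lowest of the 49, and the lowest, at 32 to 34 Mb, was -1.58. PC1 of chromosome 16 is centred in every library, so a fall in some stretches goes with higher values in others. Rbfox1 thus lay in the deepest fall of the chromosome in Late, and in a shallower one of several in Early.

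**Figure D4:**
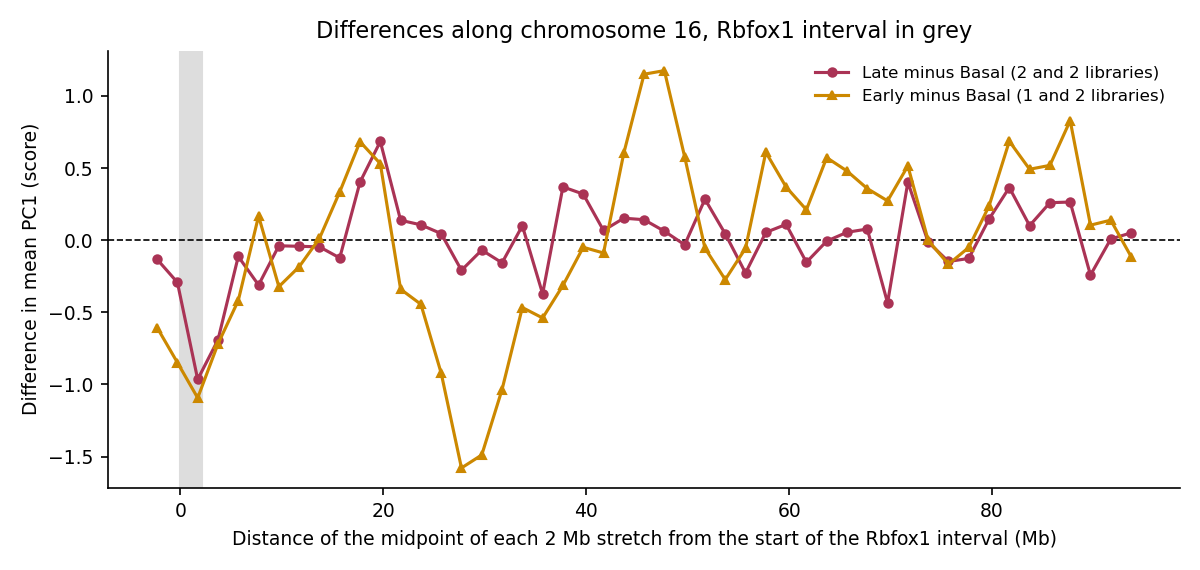
Difference in mean PC1 (y axis, score) for Late minus Basal and Early minus Basal in 2 Mb stretches of chromosome 16, against the distance of their midpoints from the start of the Rbfox1 interval (x axis, Mb), with the interval in grey. Late is lowest in the stretch at 6 to 8 Mb (-0.965), while Early falls further at 32 to 34 Mb (-1.58).

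Among 1097 windows of 43 bins that tile the analysed chromosomes outside this locus, the Basal level of the Rbfox1 interval was matched or passed by 14.3%, its Late level by 47.0% and its Early level by 51.9%. No autosomal window of 1028 had a lower Late minus Basal difference, the lowest being -0.808, and 4 windows of X did. For Early minus Basal, 11 windows were lower, 5 of them autosomal. These ranks describe an interval chosen for its fall.

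The windows most like the interval were found by the Euclidean distance between mean PC1 values over the 5 libraries. The nearest lay on chromosome 9 from 104000001 to 106150000 (distance 0.610), with Basal at 0.842 and 0.755, Early at 0.178, and Late at 0.373 and 0.291. The next lay on X from 66050001 to 68200000 (distance 0.662), with Basal at 0.625 and 0.639, Early at -0.313, and Late at -0.0477 and -0.0553. The third lay on chromosome 18 from 39500001 to 41650000 (distance 0.752), with Basal at 0.598 and 0.567, Early at 0.239, and Late at -0.0621 and 0.0439. All started lower in Basal and fell by less in Late than the Rbfox1 interval, by 0.467, 0.683 and 0.592.

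A region of chromosome 14 from 39100001 to 40300000 was compared as another fall from Basal to Late known from earlier results. It was cut from these same data, as the run of bins called lower in Late by limma with the most negative mean difference on that chromosome. That its bins fell from Basal to Late is therefore set by the cut. The region is taken to hold Nrg3, the gene of a neuregulin ligand, without an mm9 annotation. Its mean PC1 was 0.341 and 0.248 for Basal, 0.000954 for Early, and -0.855 and -0.665 for Late. It fell by 1.05 from Basal to Late, as far as the Rbfox1 interval, but all its 24 bins were in B in both Late libraries. Not all had started in A, where 19 and 16 of them lay in Basal replicates 1 and 2. By sign, 16 of the 24 passed from A in both Basal libraries to B in both Late libraries (background 2.62%). Early minus Basal was -0.294 there, against -1.14 at Rbfox1. With the running mean removed its Late difference was -0.880, so it kept more of the deposited value than the Rbfox1 interval did. The Rbfox1 interval is longer (2.15 against 1.2 Mb), and its window is shortened at the chromosome start. It therefore makes up more of its own running mean, and the values kept are not compared on equal terms. The difference between these regions was not tested, since both were chosen for their falls.

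Late and Early were also compared with each other, a contrast that did not choose the interval although it shares its libraries. Over the whole interval they differed little, by 0.133 (Late minus Early) as deposited, with Late at 0.0290 and 0.0672 and Early at -0.0851. The sign turned with the running mean removed, to -0.147. In limma, 8 of the 43 bins were higher in Late and 2 lower at an adjusted p of 0.05, where the backgrounds over all bins were 6.28% and 6.44%. On chromosome 16 as a whole 35.0% of bins passed in either direction, against 23.3% in the interval. Of its 1899 bins, 328 were higher in Late and 337 lower, so the 8 higher bins are near the share of the chromosome.

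Of the 8 higher bins, 4 lay in the fourth part of the interval. The strongest, from 7350001 to 7400000, was at -0.789 in Early and at 0.138 and 0.200 in Late, a difference of 0.958 with an SE of 0.148 (limma adjusted p = 0.00826). At the other end, the bin from 5350001 to 5400000 was at -0.273 in Early and 0.553 and 0.798 in Late (difference 0.948, SE 0.160, limma adjusted p = 0.0109). The 2 lower bins, from 5600001 to 5650000 and from 6850001 to 6900000, differed by -0.615 and -0.714 (limma adjusted p = 0.0405 and 0.0271). A single library stands for Early in these tests, and it stood apart over the whole chromosome. By part, Late minus Early as deposited was 0.238, 0.0362, -0.239 and 0.534. With the running mean removed it was -0.0351, -0.267, -0.531 and 0.286, so only the fourth part was higher in Late on both scales.

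The count of 10 bins depended on which library was left out, as did the count over all bins. With all sequences kept as deposited, the interval count was 0 (19 at an unadjusted p under 0.05). By sign, 12 bins (27.9%) were in B in Early and in A in both Late libraries (background 3.46%), 7 of them in the fourth part. The reverse held for 4 bins (9.30%, background 4.10%), all in the third part. Over the rest of chromosome 16 these shares were higher than the background, at 8.20% and 9.42%, so the 4 bins are near the share of the chromosome. With the running mean removed, 8 bins were lower in Late than in Early (background 3.35%), 5 of them in the third part, and 3 were higher (background 3.65%). In either direction 25.6% of the interval passed, against 16.3% of chromosome 16, where 145 of 1899 bins were lower and 165 higher. The count of 11 bins in the interval also depended on which library was left out, as did the count over all bins. The third part was the stretch of Rbfox1 in which Late lay below Early both as deposited (-0.239) and with the running mean removed (-0.531).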

How the data were processed

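PC1 tables of 5 Hi-C libraries were analysed. The deposited unit is a score, the signed PC1 of each 50 kb bin over 100 kb windows, and HOMER and mm9 are named per the submitters' processing notes. For the aligner, read filters, versions and sign rule the sources used here give nothing. On chromosome 16 PC1 is centred near 0 with an SD near 1 in every library, so overall compartment strength cannot be compared there. The other chromosomes were not checked for this. Without read counts in these tables, the depth behind each value is unknown.

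Groups come from the titles. Bins valued in all 5 libraries were kept on the autosomes and X where every pair of libraries had a Pearson r of at least 0.5. This left out chromosome 7, where the lowest r of a pair was -0.976, and kept 47652 bins. PC1 per bin was compared with limma 3.58.1 in R 4.3.3, with all 5 libraries in 1 fit, 2-sided, with Benjamini-Hochberg adjustment over all these bins at 0.05. The fit has 2 residual degrees of freedom, and Early, with 1 library, is taken to vary as much as the replicated groups. The labels do not state separate animals for the replicates, so a p-value reflects only the spread between them, which may be technical, and neighbouring bins are not independent. The code was checked on simulated data. The running mean was centred and computed per library and chromosome over 10 Mb. Python 3.11.15, numpy 2.4.6 and pandas 2.3.3 did the rest.

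The interval, the named windows (the 3 nearest among windows of equal length) and the neighbours (the 6 nearest protein-coding genes on each side, names only) were chosen with earlier results of these data known. Alternatives were other scalings, other running means, a replicate block, all sequences and leaving out each library. A list of other splicing regulators was not analysed here, since no gene positions in mm9 were used, and no sequence is shown because PC1 in 50 kb bins does not resolve one.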

Additional observations from a re-analysis of the deposited data

How the results depend on the processing

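Late minus Basal and Early minus Basal in the Rbfox1 interval kept their sign in every alternative run. With medians of chromosome 16 aligned, Late minus Basal was -1.06, Early minus Basal -1.27 and Late minus Early 0.209. As a median over bins, Late minus Basal was -0.961, and -0.439 with the 10 Mb running mean removed, and Early minus Basal was -0.254 with it removed. For Late minus Basal, Early minus Basal and Late minus Early, in that order, a 20 Mb running mean gave -0.631, -0.602 and -0.0289, and a running mean of bins outside the interval -0.656, -0.456 and -0.200. A 5 Mb running mean gave -0.403 for Late minus Basal and -0.243 for Early minus Basal. No Early value exists without the Early library.

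With all sequences kept as deposited, limma called 0 bins in Late against Basal (13365 at an unadjusted p under 0.05; 0 in the interval, where 42 were), 2084 in Early against Basal (24 in the interval) and 0 in Late against Early (12635 unadjusted; 0 in the interval, where 19 were). On the analysed chromosomes alone the counts were 7819, 9503 and 6062. The run on all sequences includes chromosome 7, where the lowest Pearson r of a pair of libraries was -0.976, and the cause of the lower counts was not tested. Leaving out single libraries moved the counts on the analysed chromosomes to 2641 to 14390, 4248 to 17853 and 3799 to 12608, and in the interval to 29 to 42, 34 to 41 and 8 to 20. With the running mean removed, the counts were 5694, 5588 and 3335. A 5 Mb window gave 3329, 3376 and 1802, with 5 interval bins for Early versus Basal, where a 20 Mb window gave 26. Leaving out single libraries gave 1544 to 10328, 1917 to 12226 and 2352 to 7277, and in the interval 13 to 22, 3 to 22 and 7 to 20.

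The labels state no pairing of same-numbered libraries, and the deviations of Basal and Late replicates had r = 0.0101 over 47652 bins. The number was therefore not used as a pairing, although a shared batch behind it was not tested. With the replicate number as a block, the fit as deposited called 43 interval bins in Late against Basal, 37 in Early against Basal and 11 in Late against Early. With the running mean removed, the block gave 8694 bins over the genome for Late versus Basal and 5095 for Late versus Early.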
